A study of Mus musculus with 8 samples.

Results

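Chondroitin sulfate is the sugar chain that gives growth plate cartilage its charge and its water, and the RNA of 10 genes that make it was compared between growth plate cartilage with and without a mutant mitochondrial helicase. The 10 genes are Slc26a2 and Papss2 of sulfate supply, Ugdh of sugar supply, Xylt1 and Xylt2 of chain initiation, Csgalnact1, Chsy1 and Chpf of chain elongation, and Chst11 and Chst3 of sulfation. They were taken by name, as every non-control probe whose RefSeq transcript belongs to a listed gene, which gave 16 of 56605 probes. All 10 genes had a probe well above background on all 8 arrays, and they are 10 of the 23107 features tested. None of the 10 differed between the genotypes at adjusted p 0.05, and 0.346% of all features did. Their 4 CreTW values overlapped the 4 Cre values for every gene, and the groups stood wholly apart in 6.7% of features. Counts of 0 in 10 are near such shares. A lower mean in CreTW was found for 7 of the 10 and for 51.6% of features.

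RNA came from femoral growth plates of littermate mice aged 12 days, 4 labelled Cre and 4 labelled CreTW, each hybridised alone to a 1-colour Agilent array. The labels give the genotypes by these short names alone. From general knowledge of the study, the Cre recombinase carried by both groups is driven by the collagen II promoter and so acts in cartilage cells, and the CreTW mice also hold a transgene for mutant Twinkle, the mitochondrial DNA helicase, which that recombinase switches on. The series title gives the question, which is how loss of the respiratory chain in cartilage relates to poor growth. A growth plate also touches bone, marrow, perichondrium and muscle, and the values below are of the whole piece of tissue, in which fewer cells of a type and less RNA per cell cannot be told apart.

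In textbook outline, a chondroitin sulfate chain starts when a xylosyltransferase puts xylose on a serine of a core protein such as aggrecan, and a short linker is added. Csgalnact1 adds the first N-acetylgalactosamine, and the chondroitin synthases then alternate glucuronic acid, drawn from the UDP-glucuronic acid that Ugdh makes, with N-acetylgalactosamine. Slc26a2 carries sulfate into the chondrocyte, Papss2 turns it into PAPS, the activated sulfate donor, and sulfotransferases of the Golgi place it on the chain. Inherited loss of Slc26a2, Papss2, Chst3, Chst11 or Xylt1 is known to give short stature or skeletal dysplasia in people or mice.

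The start regions of 7 of the 10 genes, 8 regions in all, were read from the RefSeq promoter table used here (build GRCm38.p6). A chromosome was left out of that reading, though not of the shares over all regions below. The other 3 genes, Slc26a2, Xylt1 and Csgalnact1, may still have start regions that were not searched. Which of them the left-out chromosome concerns was not checked. The 250 bases before the start are printed for 3 genes with lower CreTW means whose highest array was the same, Papss2, Ugdh and Chst11. They are also printed for Xylt2, which had the tightest replicates of the 10. Papss2 has start regions at chr19:32595465-32595714 and chr19:32619755-32620004, both on the plus strand. The others are Ugdh at chr5:65435843-65436092 on the minus strand, Chst11 at chr10:82985247-82985496 on the plus strand and Xylt2 at chr11:94677494-94677743 on the minus strand. Capitals mark matches on either strand to the GC box (GGGCGG), the CCAAT box (CCAAT) or the SOX core (AACAAT). The C/EBP-ATF composite of stress response genes (TGATGNAA), was also searched. No matches overlap in the regions printed.
Papss2 first start: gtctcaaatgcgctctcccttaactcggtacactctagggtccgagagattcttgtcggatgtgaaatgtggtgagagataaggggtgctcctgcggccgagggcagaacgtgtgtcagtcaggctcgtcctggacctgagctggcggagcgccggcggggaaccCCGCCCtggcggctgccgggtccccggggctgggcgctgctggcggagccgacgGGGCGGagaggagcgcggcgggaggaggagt
Papss2 second start: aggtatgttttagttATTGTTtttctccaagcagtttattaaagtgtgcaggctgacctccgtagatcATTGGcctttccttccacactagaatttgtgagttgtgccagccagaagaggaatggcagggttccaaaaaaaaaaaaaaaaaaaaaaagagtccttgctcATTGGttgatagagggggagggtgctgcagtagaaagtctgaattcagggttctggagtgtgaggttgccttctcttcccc
Ugdh: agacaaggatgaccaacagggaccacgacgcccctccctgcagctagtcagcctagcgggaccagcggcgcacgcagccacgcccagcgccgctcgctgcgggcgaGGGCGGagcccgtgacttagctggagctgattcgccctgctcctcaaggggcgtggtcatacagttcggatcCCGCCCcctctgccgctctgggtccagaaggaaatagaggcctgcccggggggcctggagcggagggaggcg
Chst11: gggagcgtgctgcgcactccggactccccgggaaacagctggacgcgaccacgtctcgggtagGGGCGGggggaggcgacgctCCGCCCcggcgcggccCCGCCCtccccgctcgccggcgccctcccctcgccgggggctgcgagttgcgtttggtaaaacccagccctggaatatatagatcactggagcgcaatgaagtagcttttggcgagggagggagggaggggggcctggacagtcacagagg
Xylt2: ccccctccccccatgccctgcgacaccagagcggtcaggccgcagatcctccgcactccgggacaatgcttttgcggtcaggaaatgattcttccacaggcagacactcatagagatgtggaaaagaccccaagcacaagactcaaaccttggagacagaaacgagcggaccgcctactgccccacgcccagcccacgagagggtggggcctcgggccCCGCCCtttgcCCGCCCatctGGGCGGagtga
The first Papss2 region holds 2 GC boxes, as does that of Ugdh, and the regions of Chst11 and Xylt2 hold 3 each. The second Papss2 region holds none, and instead has 2 CCAAT boxes and 1 SOX core. Among the 32851 such regions listed by RefSeq, 32.7% hold a GC box, 33.8% a CCAAT box, 9.42% the SOX core and 3.45% the C/EBP-ATF composite, which is in none of the 8 regions. A match is a run of letters, not a bound site, and the array does not tell from which start a Papss2 transcript came.

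Levels below are log2 signal minus the 75th percentile of the array, so that a value of 0 is the level of the upper quartile probe, and are not compared between genes because each probe has its own brightness. Differences are CreTW minus Cre on the log2 scale with the SE and 95% interval of limma, 4 arrays per genotype, and p-values adjusted by Benjamini and Hochberg over 23107 features. Over all features, 80 were called (0.346%), 53 of them higher (0.229%) and 27 lower (0.117%), and 0 of 10 is no different from what such a share would give. The 4 CreTW values stood wholly apart from the 4 Cre values in 6.7% of features, and an unadjusted limma p was under 0.05 in 10.7%. Neither held for any of the 10 genes, and 0 of 10 is near these shares too.

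Slc26a2, the sulfate transporter, had the largest difference in means of the 10. It was at 0.03, 0.42, 0.07 and 0.69 on Cre replicates 1 to 4 and at 0.05, 0.21, -0.34 and -0.11 on CreTW replicates 1 to 4. Cre replicates 2 and 4 lay above all CreTW arrays and CreTW replicates 3 and 4 below all Cre arrays, with the other 4 arrays between. The difference was -0.35 ± 0.18 (adjusted p = 0.531), or 0.786-fold with a 95% interval of 0.595 to 1.04. A second, dimmer Slc26a2 probe gave -0.41 ± 0.24. Papss2, the main PAPS synthase of cartilage, was at 5.72, 6.18, 5.63 and 6.70 in Cre and at 5.95, 6.05, 5.26 and 5.83 in CreTW. Its groups overlapped, with Cre replicate 4 the highest and CreTW replicate 3 the lowest array, as for Slc26a2. The difference was -0.28 ± 0.26 (adjusted p = 0.72, 0.822-fold, interval 0.543 to 1.24), and -0.40 ± 0.26 on the other probe.

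Ugdh, the dehydrogenase that makes UDP-glucuronic acid, came nearest to separation. It was at 3.94, 4.17, 3.88 and 4.55 in Cre and at 3.83, 4.0, 3.69 and 3.79 in CreTW, so CreTW replicates 1, 3 and 4 lay below every Cre array and CreTW replicate 2 did not. The difference was -0.31 ± 0.15 (adjusted p = 0.527, 0.809-fold, interval 0.634 to 1.03), and -0.35 ± 0.18 on its other probe. The unadjusted limma p-values of Ugdh and Slc26a2 were 0.0813 and 0.0829, the lowest of the 10.

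**Figure D1:**
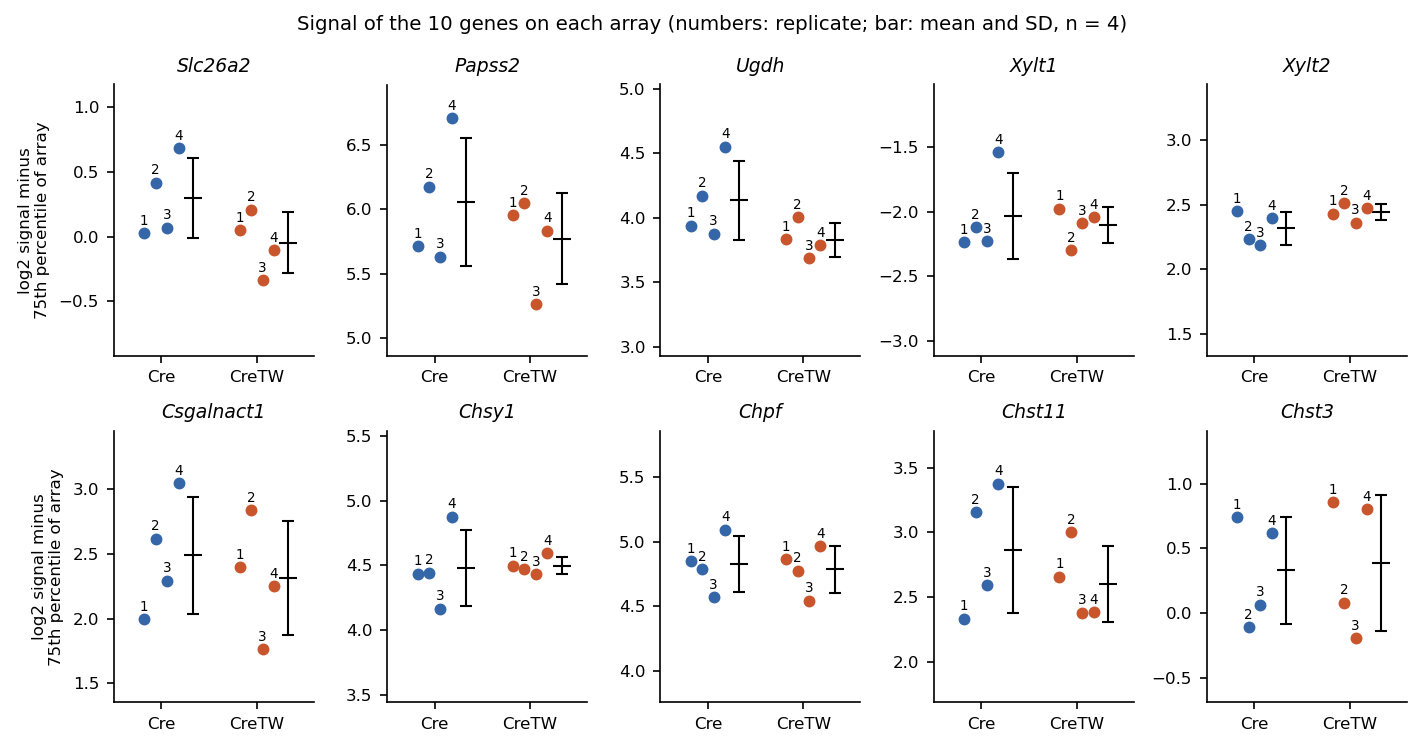
Log2 signal minus the array's 75th percentile (vertical axis, same span in each panel) of the 10 genes on the 4 Cre and 4 CreTW arrays, numbered by replicate, with mean and SD beside the points. The groups overlap in every panel, and Cre replicate 4 is the highest point in 8 of the 10.

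The xylosyltransferases, which start the chain, showed small differences. Xylt2, the isoform at work in many tissues, was at 2.45, 2.23, 2.19 and 2.40 in Cre and at 2.43, 2.51, 2.36 and 2.47 in CreTW. Its arrays spread little, with a pooled SD within genotype of 0.100, lower than in all but 12.9% of features. The difference was 0.13 ± 0.09 (adjusted p = 0.638), and its interval of 0.948 to 1.26-fold was the narrowest of the 10. Xylt1, the isoform prominent in cartilage, lay between -2.23 and -1.54 in Cre and between -2.30 and -1.98 in CreTW, with Cre replicate 4 apart from the other 3 Cre arrays. Its difference was -0.07 ± 0.17 (adjusted p = 0.905, interval 0.732 to 1.24-fold).

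Of the elongation enzymes, Chsy1 and Chpf had differences near 0 and Csgalnact1 varied widely between arrays. Csgalnact1, which adds the first N-acetylgalactosamine, was at 2.0, 2.62, 2.29 and 3.05 in Cre and at 2.40, 2.84, 1.76 and 2.25 in CreTW. Its lowest and highest arrays differed by more than the group means did in either genotype, and its difference of -0.18 ± 0.27 (adjusted p = 0.841) had an interval of 0.574 to 1.36-fold. Chsy1, a chondroitin synthase, ranged from 4.16 to 4.88 in Cre and only from 4.43 to 4.59 in CreTW, with SDs of 0.29 and 0.07. The difference of its means was 0.02 ± 0.14 (adjusted p = 0.975, interval 0.807 to 1.27-fold). Chpf, the polymerizing factor that pairs with it, ranged from 4.57 to 5.09 in Cre and from 4.54 to 4.97 in CreTW and differed by -0.04 ± 0.14 (adjusted p = 0.941, interval 0.786 to 1.21-fold).

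The sulfotransferases Chst11, which sulfates N-acetylgalactosamine at carbon 4, and Chst3, which sulfates it at carbon 6, did not share an array order. Chst11 was at 2.33, 3.16, 2.59 and 3.38 in Cre and at 2.66, 3.0, 2.38 and 2.38 in CreTW. Cre replicate 1 was its lowest array of all 8 and Cre replicate 4 its highest, so Cre arrays lay at both ends. The difference was -0.26 ± 0.25 (adjusted p = 0.727, interval 0.565 to 1.23-fold), and -0.27 ± 0.18 on the other probe. Chst3 was at 0.74, -0.11, 0.06 and 0.62 in Cre and at 0.86, 0.08, -0.19 and 0.80 in CreTW. Within each genotype it was high on replicates 1 and 4 and low on replicates 2 and 3, and the genotype difference was 0.06 ± 0.29 (adjusted p = 0.96, interval 0.659 to 1.64-fold). A second Chst3 probe was not well above background on any array and has no value here.

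**Figure D2:**
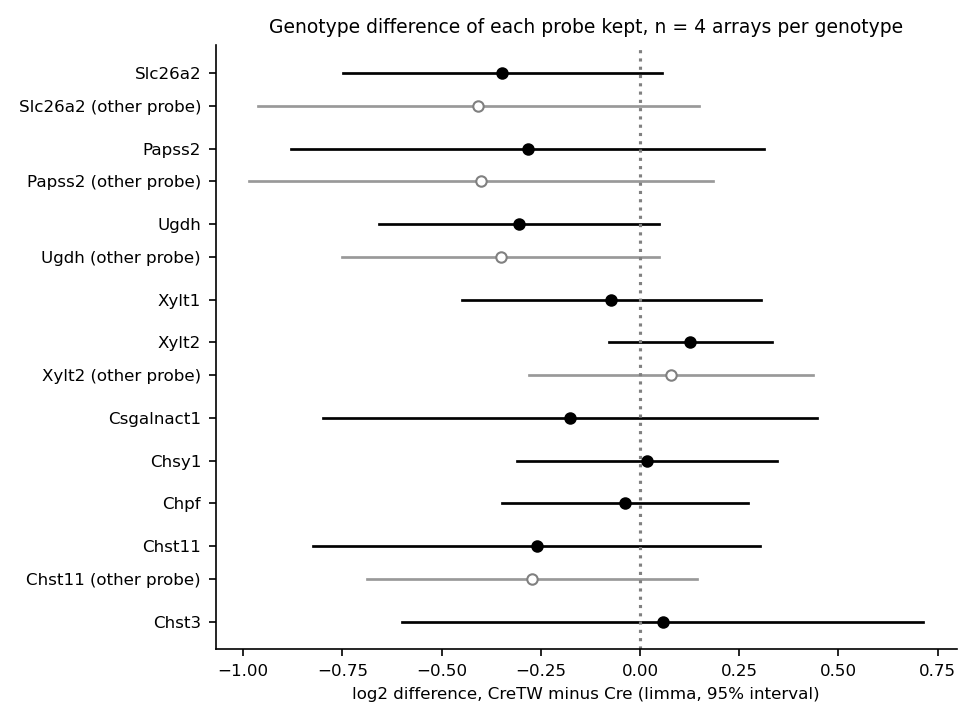
Log2 difference, CreTW minus Cre, of the 15 member probes kept, with 95% limma intervals. Filled points are the brightest probe of each gene, used in the text, and open points the other probes. Every interval spans 0, and the probes of a gene lie on the same side of it.

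Where a gene had more than 1 probe kept, the probes gave differences of the same sign. The median difference of the 10 genes was -0.12, against -0.01 over all features, and 51.6% of features had a lower mean in CreTW. Over the 10 genes the 95% intervals reached down to 0.543-fold, for Papss2, and up to 1.64-fold, for Chst3. On simulated arrays with the spread of all 23107 features, limma recovered 23% of the features given a log2 change of 0.5, 66.8% of those given 1 and 91.6% of those given 2. The changed features were drawn at random from all features, and noise was drawn for each feature on its own. The simulated arrays thus lack the variation that features share on a real array. As 9 of the 10 genes had a spread above the median feature, the recovered shares are not rates for the 10.

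Spread between mice was large for some of these genes. The pooled SD within genotype exceeded the median feature's, 0.190, for 9 of the 10, and was 0.473 for Chst3, 0.447 for Csgalnact1, 0.428 for Papss2 and 0.401 for Chst11. For Chpf and Chsy1 it was close to the median feature's, at 0.199 and 0.214, and for Xylt2 it was 0.100. Cre replicate 4 was the highest of the 8 arrays for 8 of the 10 genes, all but Chst3 and Xylt2, compared with 18.5% of features. CreTW replicate 3 was the lowest for 6 (Slc26a2, Papss2, Ugdh, Csgalnact1, Chpf and Chst3), compared with 17.9% of features. Both held for Slc26a2, Papss2, Ugdh, Csgalnact1 and Chpf, 5 of the 10, and for 6.69% of features. These 2 arrays were singled out after the values were seen, and genes measured on the same arrays are not independent of one another.

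The mean score of 15 growth plate chondrocyte markers was also highest and lowest on these 2 arrays, though not each marker was. All 15 were well above background on all 8 arrays, among them Col2a1 and Acan, the collagen and the proteoglycan that define cartilage, whose differences were -0.05 ± 0.13 and 0.01 ± 0.14. These 2 markers do not stand for all 15, as others differed by more in their means, and none of the 15 was called. The mean centred log2 value of the 15, the chondrocyte score, was -0.32, 0.13, -0.12 and 0.57 on the Cre arrays and 0.10, 0.16, -0.44 and -0.08 on the CreTW arrays. The same mean over the 10 genes was -0.09, 0.07, -0.19 and 0.47 in Cre and 0.04, 0.05, -0.33 and -0.02 in CreTW. With the chondrocyte score in the fit, a covariate added after the values were seen, the differences became -0.24 for Slc26a2, -0.22 for Ugdh, -0.13 for Papss2, -0.12 for Chst11 and -0.01 for Csgalnact1, and the median of the 10 became -0.01. In that fit the 95% interval of Slc26a2 was -0.42 to -0.07 and that of Ugdh was -0.43 to -0.02. Their unadjusted limma p-values were 0.0117 and 0.0348, and their adjusted limma p-values 0.162 and 0.245. These were the 2 members with an unadjusted p under 0.05 there, against 17.6% of all features, and neither passed after adjustment.

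**Figure D3:**
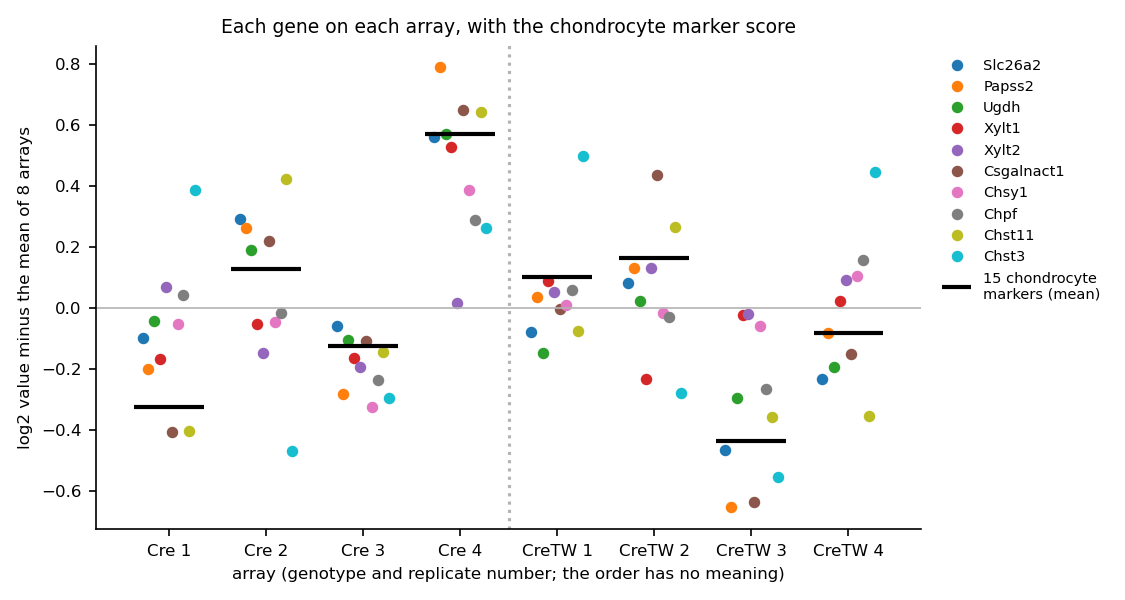
Log2 value of each of the 10 genes minus its mean over 8 arrays (vertical axis), by array, with the mean of 15 chondrocyte markers as a black bar. Most genes stand high with the bar on Cre replicate 4 and low with it on CreTW replicate 3, while Chst3 is high on replicates 1 and 4 of both genotypes and Xylt2 hardly varies.

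Markers of other tissues also differed between arrays. Each score below is the mean centred log2 value of a list. The skeletal muscle list, with 7 of 15 markers well above background on all arrays, had scores of -2.93 to 0.29 in Cre and -1.11 to 3.29 in CreTW. The perichondrium, tendon and fibroblast list (9 of 10 on all arrays) had scores of -0.74 to 0.04 in Cre and 0.08 to 0.42 in CreTW, so its groups did not overlap. Osteoclast markers (7 of 8) lay between -0.59 and 0.88 in Cre and between -1.45 and 0.43 in CreTW, and were lower on Cre replicate 4 than on the other Cre arrays, as were the osteoblast markers (7 of 7, -0.57 to 0.54 in Cre and -0.57 to 0.60 in CreTW). Marrow myeloid and B cell markers (7 of 10) ran from -1.91 to 2.19 in Cre and from -1.16 to 0.78 in CreTW, with the lowest score on Cre replicate 4. Endothelial markers (5 of 5) ran from -0.47 to 0.28 and from -0.48 to 0.53, hypertrophic chondrocyte markers (6 of 6) from -0.05 to 0.28 and from -0.45 to 0.24, and erythroid markers (3 of 6, with Epb42 above background on no array) from -0.68 to 0.82 and from -0.84 to 0.25. With the muscle score as a covariate the median difference of the 10 genes was 0.09, and with the osteoclast score it was -0.34, with 9 of the 10 negative and Slc26a2 at -0.60, Papss2 at -0.65 and Csgalnact1 at -0.60. With the osteoclast score 5 members (Slc26a2, Ugdh, Csgalnact1, Papss2 and Chst11) had an unadjusted limma p under 0.05, all lower in CreTW, against 11% of all features. With the muscle score 0 had, against 1241 of 23107 features. The SE of each of the 10 was larger with the muscle score than without it, 0.40 in place of 0.26 for Papss2. No member passed after adjustment in either fit. The part of the other lists in the values of the 10 genes was not tested.

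The direction of the median difference depended on which arrays were used. The 8 arrays lay in 2 rows of 1 slide, per the file headers, each with 2 arrays of either genotype. Within row 1, with replicates 1 and 2, the median difference of the 10 genes was 0.05 and 2 were negative, Slc26a2 at -0.09 and Ugdh at -0.14. Within row 2, with replicates 3 and 4, the median was -0.33 and 9 were negative, with Csgalnact1 at -0.66, Papss2 at -0.62, Chst11 at -0.60, Slc26a2 at -0.60 and Ugdh at -0.47. Row 2 holds both Cre replicate 4 and CreTW replicate 3. The difference between the rows was itself tested, as an interaction in limma added after the values were seen, and passed for none of the 10 (lowest adjusted p = 0.72, Csgalnact1, at -0.97) and for 0 features in all. Without Cre replicate 4 the median was 0.03 with 4 of 10 negative, and without CreTW replicate 3 it was -0.04 with 5 of 10 negative. Slc26a2 and Ugdh stayed negative without each single array, between -0.44 and -0.22 for Slc26a2 and between -0.39 and -0.17 for Ugdh, and so did Papss2 (-0.42 to -0.07) and Chst11 (-0.44 to -0.09). Without both arrays Papss2 was at 0.10, Slc26a2 at -0.12 and Ugdh at -0.12.

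**Figure D4:**
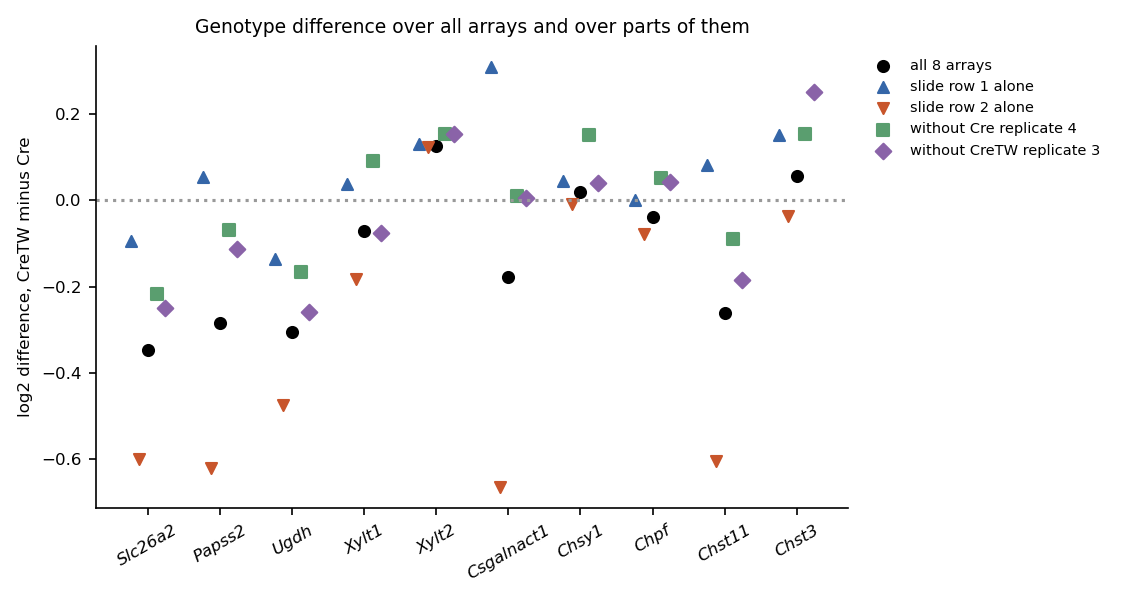
Log2 difference, CreTW minus Cre (vertical axis), of each gene over all 8 arrays, within each row of the slide (2 arrays per genotype) and without Cre replicate 4 or CreTW replicate 3. Slc26a2 and Ugdh lie below 0 in each case shown and Xylt2 above it, while Csgalnact1 runs from -0.66 in row 2 to 0.31 in row 1.

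The rest of the pathway was read from 9 lists that hold 83 tested genes besides the 10. None of the 83 passed the test, against 0.346% of all features. An unadjusted limma p was under 0.05 for 11 of the 83, against 10.7% of all features. Both counts are near these shares. By the mean 43 of the 83 were higher and 40 lower, and their median was 0.01. The CreTW values lay wholly below the Cre values for 2 of the 83 (2.81% of all features) and wholly above for 6 (3.89% of all features). Of each list, the 2 genes other than members with the lowest unadjusted p are named here, and none of them passed the test. Counts and medians per list include the members that the list holds, so they repeat values given above. They are descriptions, beside 51.6% of all features with a lower mean in CreTW. No list was tested as a whole, and genes measured on the same arrays are not independent of one another.

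Sulfate supply had 6 of 7 differences negative, with a median of -0.10, the members Slc26a2 and Papss2 being among the 6. Papss1, the other PAPS synthase, was at 1.67, 1.81, 1.64 and 1.82 in Cre and at 1.41, 1.31, 1.27 and 1.61 in CreTW. All 4 CreTW values lay below the Cre values, as in 2.81% of features, and the difference was -0.34 ± 0.10 (adjusted p = 0.286). Slc26a1, another sulfate transporter, was at 0.15 ± 0.12. The linker list had a median of -0.07 over 7 genes, which is the value of the member Xylt1 itself. In that list Pxylp1, the phosphatase that takes the phosphate off the linker xylose, differed by -0.58 ± 0.19 (adjusted p = 0.324). Its Cre values of 3.10, 3.42, 2.90 and 3.83 all lay above its CreTW values of 2.63, 2.83, 2.75 and 2.72. B4galt7, which adds the first galactose of the linker, was at 0.10 ± 0.10.

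Among 6 chain polymerization genes, with a median of -0.01, Csgalnact2, the paralog of Csgalnact1, was higher on all 4 CreTW arrays (1.73 to 2.13) than on any Cre array (1.37 to 1.65). That direction of separation was found in 3.89% of features, and the difference was 0.36 ± 0.12 (adjusted p = 0.333). Chpf2, a paralog of Chpf, was at -0.08 ± 0.16. Of 10 genes of chondroitin and dermatan sulfation and epimerization, with a median of 0.04, Dse, a dermatan epimerase, was at 0.20 ± 0.09 and Chst7, a sulfotransferase of carbon 6, at -0.50 ± 0.22 (adjusted p = 0.469). Cre replicate 4 held the lowest Cre value of Chst7 and CreTW replicate 3 its highest CreTW value, 0.04 and 0.57. Without these 2 arrays, which were picked after the values were seen, Chst7 and Chst13, a sulfotransferase of carbon 4, passed the test, which is no independent support for either. Chst13, also named after its values were seen, was well above background on 3 Cre and 2 CreTW arrays. In that fit 194 features were called in place of 80, and no member.

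Nucleotide sugar supply had a median of 0.0042 over 13 genes, with Gnpnat1, of the path to UDP-N-acetylglucosamine, at 0.26 ± 0.11 and the transporter Slc35d2 at 0.19 ± 0.11. Of 16 heparan sulfate genes 12 were higher by the mean, with a median of 0.05. Glce, the epimerase that makes iduronic acid in heparan sulfate, was at 0.34 ± 0.10 (adjusted p = 0.277) and Sulf1, which removes sulfate outside the cell, at 0.45 ± 0.14 (adjusted p = 0.32). Keratan sulfate and hyaluronan genes had a median of 0.05 over 8, with B3gnt2 at 0.25 ± 0.10 and Has2, a hyaluronan synthase, at -0.31 ± 0.25. Of 17 genes of lysosomal and other degradation 13 were lower by the mean, with a median of -0.14, among them Gusb, a glucuronidase, at -0.41 ± 0.17 (adjusted p = 0.448), while Idua, an iduronidase, was at 0.24 ± 0.12. The osteoclast score was also lower on all 4 CreTW arrays than on Cre replicates 1 to 3. On Cre replicate 4 it was -0.59, below CreTW replicates 3 and 4 at 0.43 and -0.003, so the groups overlapped. The part of this score in the degradation genes was not tested. Core proteins that carry chondroitin sulfate had a median of 0.01 over 9, with Vcan, which encodes versican, at 0.32 ± 0.11 (adjusted p = 0.365) and Dcn, which encodes decorin, at 0.35 ± 0.13 (adjusted p = 0.381), the list holding Acan too. All 4 CreTW values lay above all Cre values for Gnpnat1, B3gnt2, Vcan and Dcn, and for Extl2 of the heparan sulfate list, named after its values were seen, which with Csgalnact2 make up the 6 genes counted above.

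**Figure D5:**
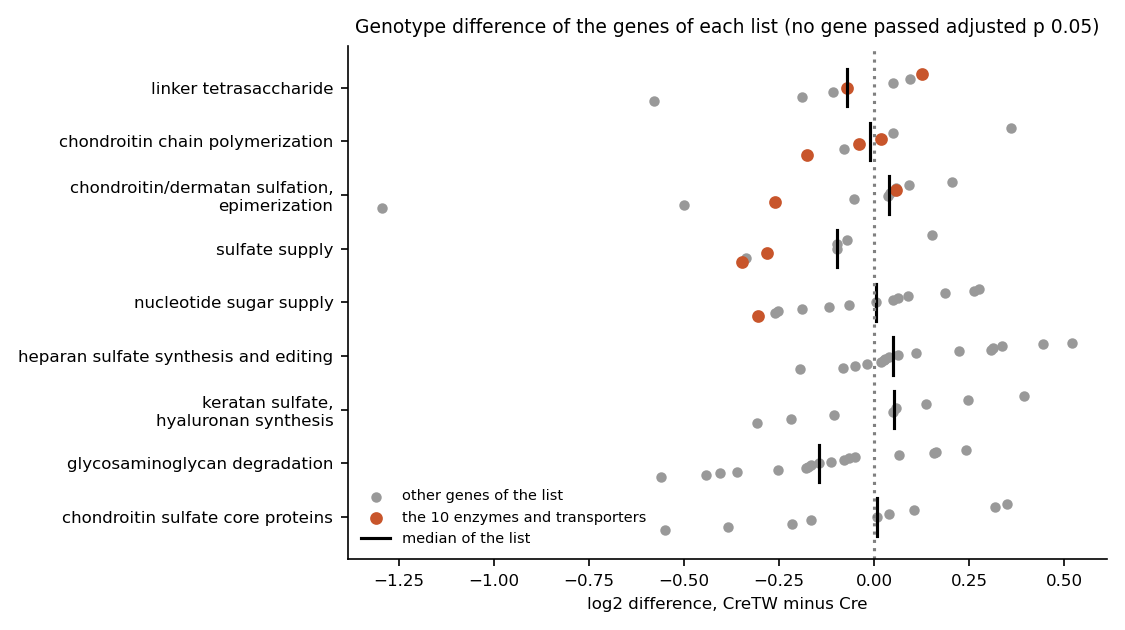
Log2 difference, CreTW minus Cre (horizontal axis), of the tested genes of 9 lists, one point per gene, with the 10 genes in orange and each list's median as a bar. The point at -1.29 is Chst13, sulfate supply lies mostly below 0 and heparan sulfate synthesis mostly above it, and no gene passed the test.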

How the data were processed

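Total RNA of femoral growth plate was measured on 8 single-colour arrays from 4 Cre and 4 CreTW mice. The authors' deposited intensity values were made with Agilent Feature Extraction 11.5.1.1 (background-subtracted, probes on mm9), per the file headers. The authors' deposited log2 table, made with GeneSpring 14.9 per the labels, equalled the log2 of those intensities minus a constant per array (r = 1 on all 8), with column medians of -3.03 to -2.93 and genes not centred.

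Spots with outlier flags were left out, spots of a probe averaged, and the log2 taken minus the array's 75th percentile (144 to 187 scanner units). A probe was kept where 4 or more of the 8 arrays had it well above background (45.4% to 57.9% of 56605 probes were so on an array, none saturated), named through RefSeq transcripts (GRCm38.p6, 32994 probes matched 1 symbol, 0 several and 23611 none), and the brightest probe of a gene was used. Of 107 names in the pathway lists, 103 were on the array and 93 were tested.

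Genotypes were compared with limma 3.58.1 (R 4.3.3) with 6 residual and 2.52 prior degrees of freedom, Benjamini-Hochberg adjustment and a threshold of 0.05, tested on simulated data (5.24% false among calls). Members and lists were chosen with earlier results of these data known. Named were all 10 genes, Col2a1, Acan and, per list, any called gene or else the 2 other genes with the lowest p. Probe and protein sequences were not used here. The alternatives tried were other scaling, background correction, filters, probe rules, blocks, weights, covariates and leaving out arrays. Normexp was run on the median spot signal.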

Additional observations from a re-analysis of the deposited data

Results flagged for a closer look

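Within a genotype, 3 of 60 groups of 4 arrays had 1 array far from the other 3, by a rule that chance meets in about 1 group in 20. For Xylt1, Cre replicate 4 was at -1.54 and the other Cre arrays between -2.23 and -2.12. For B3gnt2, CreTW replicate 3 was at -0.21 and the other CreTW arrays between -0.46 and -0.43. For Idua, CreTW replicate 4 was at 6.84 and the others between 7.11 and 7.15.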

How the results depend on the processing

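No member was called under any of 25 other settings of the gene-level fit, nor any of its probes when each probe was tested alone, and no pathway gene was, except 2 without Cre replicate 4 and CreTW replicate 3 together (Chst7 and Chst13), arrays picked after the values were seen. The lowest adjusted p of a member was 0.162 (Slc26a2, with the chondrocyte score). With normexp the unadjusted limma p was 0.0371 for Slc26a2 and 0.0402 for Ugdh, and under 0.05 for 2389 of 23107 features. The unadjusted p was also under 0.05 for Slc26a2 without Cre replicate 1 (2304 features) or without CreTW replicate 2 (1938 features). The same held for Ugdh without Cre replicate 3 (2065 features). The median difference of the members ran from -0.34 to 0.12, and from -0.24 to 0.03 without single arrays. The count of features called over the array, 80, was 27 with no filter on dim probes, 12 with the replicate block, 53 with the slide row as a block, 0 in slide row 1 alone, 0 in row 2 alone (2 arrays per genotype), 127 with array weights, 4 with the muscle score, 45 with the osteoclast score, 141 with the chondrocyte score, 194 without both of the arrays named above, and 42 to 75 without single arrays (50, 51, 53 and 42 without Cre replicates 3 and 2 and CreTW replicates 2 and 4). The deviations of arrays with the same replicate number from their genotype means correlated at -0.01, -0.10, 0.31 and -0.03 over features, so the numbers were not taken to pair the mice. The replicate block can change only the errors of these differences, not their size. Some member differences changed sign. In row 1 alone Papss2 was at 0.053, Chst11 at 0.083, Xylt1 at 0.038, Chpf at 0.0014 and Csgalnact1 at 0.31, and in row 2 alone Chst3 was at -0.036 and Chsy1 at -0.0088. With the muscle score Papss2 was at 0.056, Xylt1 at 0.13 and Chpf at 0.17, with the osteoclast score Chst3 was at -0.075 and Chsy1 at -0.10, with array weights Xylt1 was at 0.027 and Chpf at 0.067, and with the chondrocyte score Chpf was at 0.013. Without both arrays Papss2 was at 0.10, Xylt1 at 0.088, Chpf at 0.13 and Csgalnact1 at 0.19. Without single arrays Chst3 ran from -0.099 to 0.25, Xylt1 from -0.14 to 0.092, Chsy1 from -0.087 to 0.15, Chpf from -0.12 to 0.051 and Csgalnact1 from -0.35 to 0.0096. The causes were not tested. The number of arrays limits the precision.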
